A study of Mus musculus with 175 samples.

Results

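The metallothioneins Mt1 and Mt2 and the transcription factor Mtf1 were followed in single sorted progenitors of the mouse fetal liver. These are 3 genes of the 49585 mouse features in the count table, all 3 were read, and all 3 were among the 11860 genes that averaged 1 read per cell or more. The set was chosen by a readout of the same cells, the strong loading of Mt1 at the P2- MEP end of the first principal component, with no stated threshold. Mt2 is the paralog of Mt1, and Mtf1 encodes a regulator of both. The levels of Mt1 between populations and along that component are therefore a description and carry no test.

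Megakaryocyte erythroid progenitors (MEPs) and common myeloid progenitors (CMPs) were sorted from E14.5 livers of 2 litters that had been pooled, and each cell was sequenced as a library of its own by Smart-Seq2, a method that reads along the whole transcript and carries no molecular identifiers. All cells came from 1 genotype and strain background, mice carrying Runx1 P1-GFP::P2-hCD4/+ reporters on C57BL/6 crossed with ICR, although the genotype label spells the first reporter P2-GFP. In these animals human CD4 on the surface reports the proximal P2 promoter of Runx1, GFP reports the distal P1 promoter, and P2+ or P2- says whether human CD4 was seen. No cell was treated and no gene was deleted. The study gates both kinds of progenitor as Lin- Sca1- cKit+ with low CD16/32, calls them MEPs when CD34- and CMPs when CD34+, and took the CD41- CD150+ cells of each, so these surface proteins were fixed by the sort. The labels call the CMPs low and high, which were read as P2- and P2+, and the subtype label of 1 P2- CMP says MEP, against its title. Of 175 cells, all but 3 met the study's limits on depth and quality, which left 56 P2- and 47 P2+ MEPs, with 27 P2- and 42 P2+ CMPs. Because the livers were pooled, each of the 4 populations is 1 sample, and differences between populations have no replicate check. The comparison of P2+ with P2- cells within the MEPs and within the CMPs asks what the Runx1-P2 reporter separates among progenitors of the erythroid, megakaryocytic and myeloid lineages.

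Reads on mouse genes numbered 295064 to 1540631 per cell, and 30606262, 31573710, 18334696 and 36351033 when summed over the P2- and P2+ MEPs and then the P2- and P2+ CMPs, an order kept below wherever 4 values are given. A level below is reads per 1000000 reads on mouse genes (CPM), either in 1 cell or, as a pooled level, from the summed reads of a population. Intervals of levels, ratios and shares of reads are exact at 95% and cover counting error only. They contain neither the spread between cells nor that between animals, and copies of 1 molecule are counted as separate reads. Intervals of shares of cells are exact binomial at 95% over the cells of a population. These take cells of 1 pool as independent draws and contain no spread between animals. Libraries also differed in the reads on spiked-in ERCC RNA: for each ERCC read there were 63.1, 41.1, 44.2 and 55.5 mouse reads in the 4 populations. Summed CPM of 7 erythroid marker genes was 1996, 959.3, 326.7 and 109.1, that of 6 megakaryocytic genes 53.88, 473.9, 532.1 and 617.6, that of 6 granulocyte and monocyte genes 9.148, 41.36, 336.7 and 562.1, and that of 5 stem and multipotent genes 8.724, 119.3, 610.6 and 965.8. Cd34 and the CD41 gene Itga2b are in these lists and encode proteins of the gate. Without Cd34 the stem and multipotent sum was 8.691, 106.3, 336.3 and 425, and without Itga2b the megakaryocytic sum was 20.26, 370.6, 500.1 and 578.5.

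Metallothioneins are small cysteine-rich proteins that bind zinc and copper, buffer the free metal ions of the cell and can also bind toxic metals such as cadmium. MTF1 is a zinc finger transcription factor that senses zinc, enters the nucleus when zinc rises and binds short metal response elements in the promoters of Mt1 and Mt2. The fetal liver, in which red cells are made before birth, is known as an organ rich in metallothionein, and developing erythroid cells take up much zinc and iron.

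In the GRCm38 build Mt2 lies on the plus strand at chr8:94172664-94173568 and Mt1 on the same strand at chr8:94179082-94180327, with 5513 bases between them. Mtf1 lies on another chromosome, at chr4:124802104-124849800, also on the plus strand. The paired promoters of Mt2 and Mt1 are shown because both genes carry copies of the core of the metal response element and both fell from P2- MEPs to P2+ CMPs. The sequences are RefSeq's for build GRCm38.p6, written 5′ to 3′ on the plus strand, and capitals mark each match of 7 bases to the core TGCACNC or TGCGCNC on either strand.
Mt2 upstream, chr8:94172368-94172617: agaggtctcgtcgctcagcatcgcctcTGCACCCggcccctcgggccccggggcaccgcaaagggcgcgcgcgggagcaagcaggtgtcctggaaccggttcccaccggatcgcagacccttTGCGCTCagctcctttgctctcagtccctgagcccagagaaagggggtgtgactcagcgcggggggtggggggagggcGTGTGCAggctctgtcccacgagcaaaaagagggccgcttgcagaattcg
Mt1 upstream, chr8:94178839-94179081: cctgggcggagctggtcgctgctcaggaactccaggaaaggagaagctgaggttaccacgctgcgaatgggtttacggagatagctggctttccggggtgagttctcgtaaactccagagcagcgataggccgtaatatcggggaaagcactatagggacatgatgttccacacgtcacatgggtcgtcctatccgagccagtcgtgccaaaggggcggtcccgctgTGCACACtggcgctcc
Mt1 after the start, chr8:94179091-94179115: TGCACTCcgcccgaaaagTGCGCTC

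The window searched ran from 250 bases before to 50 bases after the RefSeq start of each gene. Mt2 held 4 cores in this window, at -223, -128, -50 and +5 from its start, of which the first 3 lie in the stretch shown, and the one at -50 is on the minus strand, so that the capitals there read as its reverse complement. Mt1 held 3 cores, at -23, +3 and +21, all on the plus strand, and no matches overlapped each other. The start in these positions and labels is RefSeq's, and the start used in these cells was not measured. Bases further than 50 after the RefSeq start were not searched, so each count is for this window only. At least 1 core stood in 25.7% of the 32851 promoters of the same length, and at least 3 in 1.97%. Slc30a1, a zinc exporter known as a target of MTF1, held 2, while the Mtf1 promoter and both RefSeq windows of Slc39a10 held 0. Those windows of Slc39a10 have their starts at chr1:46925776 and chr1:46853618. The annotated gene, on the minus strand, starts at chr1:46892852, and that promoter was not searched. Mt3 and Mt4, the other metallothioneins of the cluster, held 1 each. A match is a match of letters only, and binding of MTF1 was not measured.

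The annotation limits what was counted for Mt2. An antisense gene of unknown role, Gm45774, covers 432 of the 588 exon bases of Mt2 (73.5%) from the opposite strand. Counting was done without regard to strand, so a read touching that part could not be assigned to either gene and was set aside as ambiguous. Mt2 kept 156 bases of its own, 1 unbroken stretch at the 3′ end of the gene, and every Mt2 count below is therefore an undercount. The antisense gene itself had 27 reads in all cells. No other gene overlapped the 1246 exon bases of Mt1, which fill its whole span, and 8.09% of the 8907 exon bases of Mtf1 were overlapped by 1110065P20Rik. The identifiers and their versions are the same in the count table and in this annotation for these genes. The exon map around Mt2 shows the overlap to scale.

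**Figure D1:**
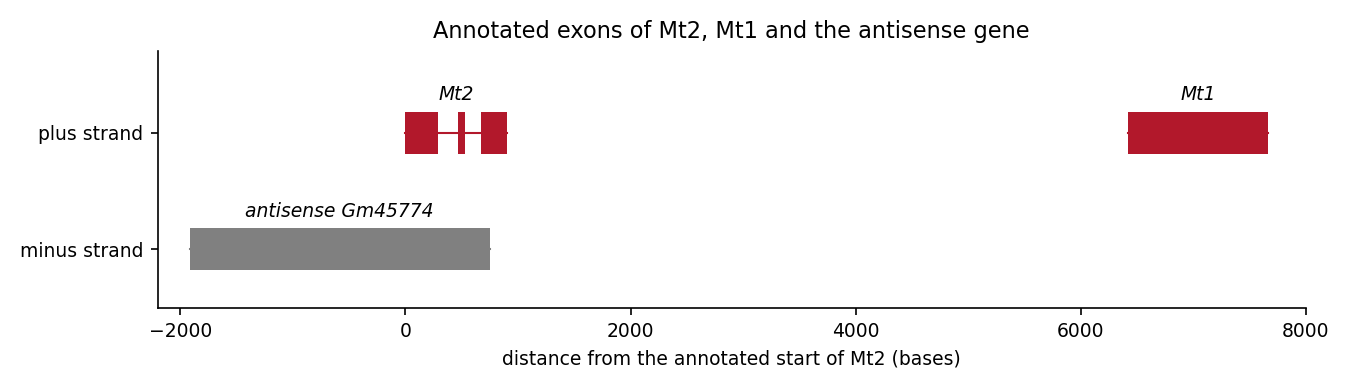
Annotated exons (boxes) on the plus and minus strands against the distance in bases from the annotated start of Mt2. The antisense gene runs from -1916 to 748 and leaves free only the end of the last Mt2 exon, while Mt1, whose start is at 6418, is not overlapped.

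Mt1 was among the genes with the most reads in P2- MEPs. It was read in 56 of 56 P2- MEPs, in which the lowest cell had 120 CPM, the median 1074 and the highest 1821. In the P2+ MEPs, all 47 of which had reads, the lowest was 7.96, the median 552 and the highest 1616. Most P2+ MEPs were thus low within the range of the P2- MEPs: 41 of 47 were below the lower quartile of the P2- MEPs and 3 were below their lowest cell, but 5 were above their median.

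Among the 27 P2- CMPs Mt1 ranged from 0 to 804.4 CPM with a median of 52.1, and 19 cells had a read. In the 42 P2+ CMPs it ranged from 0 to 330 with a median of 9.53, and 21 cells had a read. Both counts of cells were the same after each cell was thinned to 100000 reads. No CMP of either kind reached the median of the MEPs with the same reporter state, and 14 of 27 P2- CMPs were below the lowest P2- MEP.

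The pooled level of Mt1 was 1090 CPM (interval 1078 to 1102) in P2- and 619.9 (611.2 to 628.6) in P2+ MEPs, against 144.8 (139.3 to 150.4) in P2- and 49.41 (47.15 to 51.75) in P2+ CMPs. By pooled reads, which are not divided by gene length, it was number 109 and 187 among all genes in the MEPs and number 1286 and 3904 in the CMPs. The level thus fell from the MEPs to the CMPs and, in each compartment, from P2- to P2+, and neighbouring intervals do not overlap, although single cells of neighbouring populations do.

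The log2 ratio of P2+ over P2- for Mt1 was -0.81 (interval -0.84 to -0.79) in MEPs, a 1.76-fold lower level, and -1.55 (-1.64 to -1.46) in CMPs, a 2.93-fold lower level. A gene is called here when its pooled level differs at least 2-fold and the interval excludes 0. By this rule Mt1 was not called in the MEPs and was called lower in P2+ CMPs. With ERCC reads as the denominator in place of mouse reads, the ratio in the MEPs was -1.43. Between the compartments, Mt1 was 7.53-fold lower in P2- CMPs than in P2- MEPs (log2 ratio -2.91) and 12.5-fold lower in P2+ CMPs than in P2+ MEPs (log2 ratio -3.65). These comparisons share populations with the first pair and are not independent of them.

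**Figure D2:**
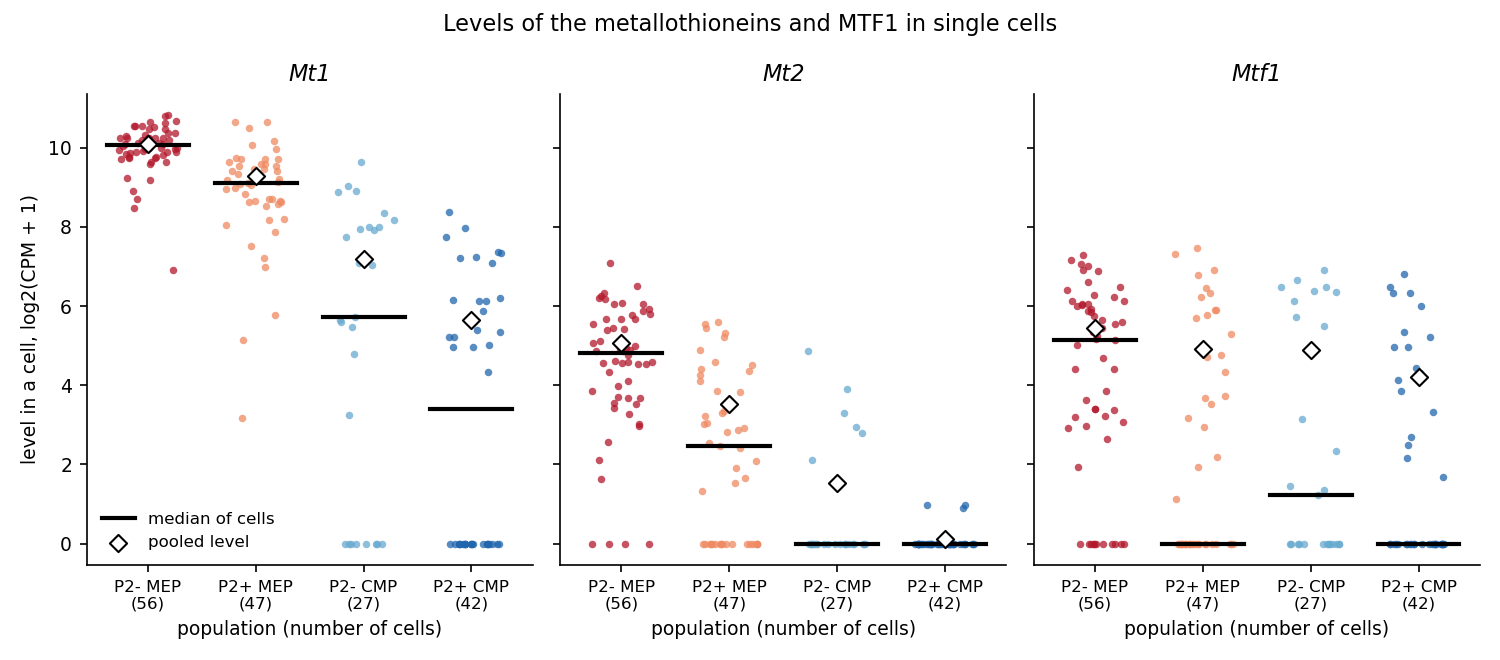
Level in each cell as log2(CPM + 1) for Mt1, Mt2 and Mtf1 in the 4 populations, with the median of the cells as a bar and the pooled level as a diamond. Mt1 is above 0 in every MEP but at 0 in 8 of 27 P2- CMPs and 21 of 42 P2+ CMPs, Mt2 falls in the same order from a lower level, and Mtf1 has cells at 0 in all populations.

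Mt1 also varied between cells of 1 population. Its coefficient of variation (SD over mean) was 0.32 in P2- MEPs and 0.616 in P2+ MEPs. The median for genes at 500 CPM or more was 0.246 and 0.298, and 80.9% and 97.1% of these genes varied less than Mt1. In P2+ MEPs Mt1 was therefore among the more variable of these genes. In CMPs the coefficient was 1.22 for P2- and 1.53 for P2+ cells.

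Mt2, which encodes the second broadly expressed metallothionein, followed the same order at a far lower count. Its levels were 0 to 134.3 CPM with a median of 27.1 in P2- MEPs, and 0 to 47.54 with a median of 4.48 in P2+ MEPs. Every P2+ MEP was below the highest P2- MEP, and 16 P2- MEPs exceeded the highest of the P2+. In P2- CMPs the range was 0 to 27.98 and in P2+ CMPs 0 to 0.9786, with a median of 0 in both.

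A read of Mt2 was present in 52 of 56 P2- and 30 of 47 P2+ MEPs, but in 6 of 27 P2- and 3 of 42 P2+ CMPs. After thinning to 100000 reads per cell the counts were 46 (82.1%, exact interval 69.6 to 91.1), 18 (38.3%, 24.5 to 53.6), 5 (18.5%, 6.3 to 38.1) and 0, which allows a share of up to 8.41%. The shares of cells with a read still fell in the same order at equal depth. The intervals of the P2- and P2+ MEPs did not overlap, while those of the later neighbours in this order did. The pooled levels were 32.54, 10.45, 1.909 and 0.08253 CPM, from 996, 330, 35 and 3 reads.

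The log2 ratio of P2+ over P2- for Mt2 was -1.64 (interval -1.82 to -1.46) in MEPs, 3.11-fold lower, and -2.26 with ERCC reads as the denominator. In CMPs it was -4.53 with a wide interval of -6.88 to -2.87, since the P2+ CMPs held 3 reads. From P2- MEPs to P2- CMPs the log2 ratio was -4.09 (-4.62 to -3.61), and from P2+ MEPs to P2+ CMPs it was -6.98 (-9.27 to -5.42). Mt2 was called lower in all 4 comparisons.

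Mt2 formed a falling part of the metallothionein reads. Of the reads on Mt1 and Mt2 together, Mt2 took 2.9% (interval 2.72 to 3.08) and 1.66% (1.49 to 1.85) in the MEPs, and 1.3% (0.908 to 1.81) and 0.167% (0.0344 to 0.487) in the CMPs, P2- first in each. The intervals of the P2- and P2+ MEPs do not overlap, and those of the P2+ MEPs and the P2- CMPs do. Per kilobase of exon the pooled level in P2- MEPs was 875 CPM for Mt1 and 55.3 for Mt2, or 208.6 for Mt2 when divided by its free exon bases alone. The gap between the levels of the paralogs therefore depends on the antisense overlap and on the exon bases counted. For Mt1 these join the exons of all its transcripts and fill its whole span. The overlap and the exon bases are the same in every population, and the ratios between populations use the same bases throughout.

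Mt3 and Mt4 were close to absent from the reads: Mt3 had 0 reads in all populations and Mt4 1 read, in 1 P2+ MEP. The upper limit of the exact interval for a count of 0 was 0.1205 CPM in P2- MEPs, and in the other populations 0.1168, 0.2012 and 0.1015. Both genes are known mainly from other tissues, Mt3 from brain and Mt4 from stratified epithelium. Of 8 other neighbours of the cluster, 6 could be compared, and 0 of them were called in either direction between P2+ and P2- cells of either compartment, beside 14.9% of all tested genes higher and 6.42% lower in MEPs and 9.75% and 9.31% in CMPs. Without the highest cell of each population 1 of them, Bbs2, was called higher in P2+ CMPs, with a log2 ratio of 1.63.

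Mtf1, the zinc-sensing regulator, had the smallest ratios of pooled level among the members, although its share of cells with a read at equal depth was 75% in P2- and 40.4% in P2+ MEPs, where that of Mt1 was 100% in both. In P2- MEPs it ranged from 0 to 156.4 CPM with a median of 34.5, and in P2+ MEPs from 0 to 175.4 with a median of 0. The P2- CMPs ranged from 0 to 119.4 with a median of 1.33, and the P2+ CMPs from 0 to 111 with a median of 0. The ranges of all populations overlapped almost fully. At 100000 reads per cell a read was present in 42 of 56 P2- and 19 of 47 P2+ MEPs, and in 12 of 27 P2- and 14 of 42 P2+ CMPs.

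Pooled levels of Mtf1 were 42.25 CPM (interval 39.97 to 44.61), 29.11 (27.25 to 31.05), 28.53 (26.13 to 31.08) and 17.41 (16.08 to 18.82). The P2+ MEPs and P2- CMPs, neighbours in this order, were not told apart at this depth. P2+ over P2- gave a log2 ratio of -0.54 (-0.66 to -0.41) in MEPs and -0.71 (-0.88 to -0.54) in CMPs, and those of CMPs over MEPs were -0.57 for P2- and -0.74 for P2+ cells. None of these ratios reached 2-fold, but with ERCC reads as the denominator that of P2+ over P2- MEPs was -1.15 and that of P2- CMPs over P2- MEPs -1.08. One P2+ MEP held 203 of the Mtf1 reads of its population (22.1%) and 1 P2+ CMP held 171 (27%). Without the highest cell of each population the ratios of P2+ over P2- were -0.79 in MEPs and -0.93 in CMPs. Per kilobase of exon the level of Mtf1 was 4.74 CPM in P2- MEPs, against 875 for Mt1.

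Counted together, 1 of 3 members (Mt2) was called lower and 0 higher in P2+ than in P2- MEPs, where 6.42% of all tested genes were called lower and 14.9% higher. In P2+ against P2- CMPs 2 of 3 members were lower and 0 higher, with 9.31% of tested genes lower and 9.75% higher. In P2- CMPs against P2- MEPs 2 of 3 were lower, with 9.21% of genes lower and 22.4% higher, and in P2+ CMPs against P2+ MEPs 2 of 3 were lower, with 10.3% lower and 17% higher. As Mt1 was selected on such a difference and the set was named with its pattern known, nothing is read from these shares. Over all tested genes the median log2 ratio was 0.05, -0.02, 0.11 and 0.01 in the 4 comparisons.

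The place of each member along the main axis of the cells was described with a principal component analysis of 500 genes from which the 3 members were left out. The first component (PC1) held 15.1% of the variance and ran from the P2- MEPs at the low end to the CMPs at the high end. Mt1 loading on this axis was the reason for the choice of members, so the relation of Mt1 with it follows from the selection. When the cells were cut by PC1 into 5 bins of 34 or 35 cells, the pooled level of Mt1 was 1229, 902, 514, 110 and 38.1 CPM from the low end to the high end. Mt2 gave 39.5, 22.2, 5.88, 0.619 and 0.137, and Mtf1 44.8, 37.7, 28.2, 29.4 and 12.1. Mt1 and Mt2 fell at every step, and Mtf1 was no lower in the fourth bin than in the third.

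Within single populations Spearman's rho of Mt1 with PC1 was -0.48 and -0.61 in the 56 P2- and 47 P2+ MEPs, and -0.86 and -0.25 in the 27 P2- and 42 P2+ CMPs. For Mt2 it was -0.39, -0.55 and -0.34 in the first 3 populations and could not be computed in thinned P2+ CMPs, where no read was left. For Mtf1 it was 0.057, -0.19, -0.36 and -0.075. These coefficients are over cells that share 1 pool of livers and differ in depth, and they are given with no p. Mt1 was thus lower toward the CMP end in each sorted population, least so in the P2+ CMPs.

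**Figure D3:**
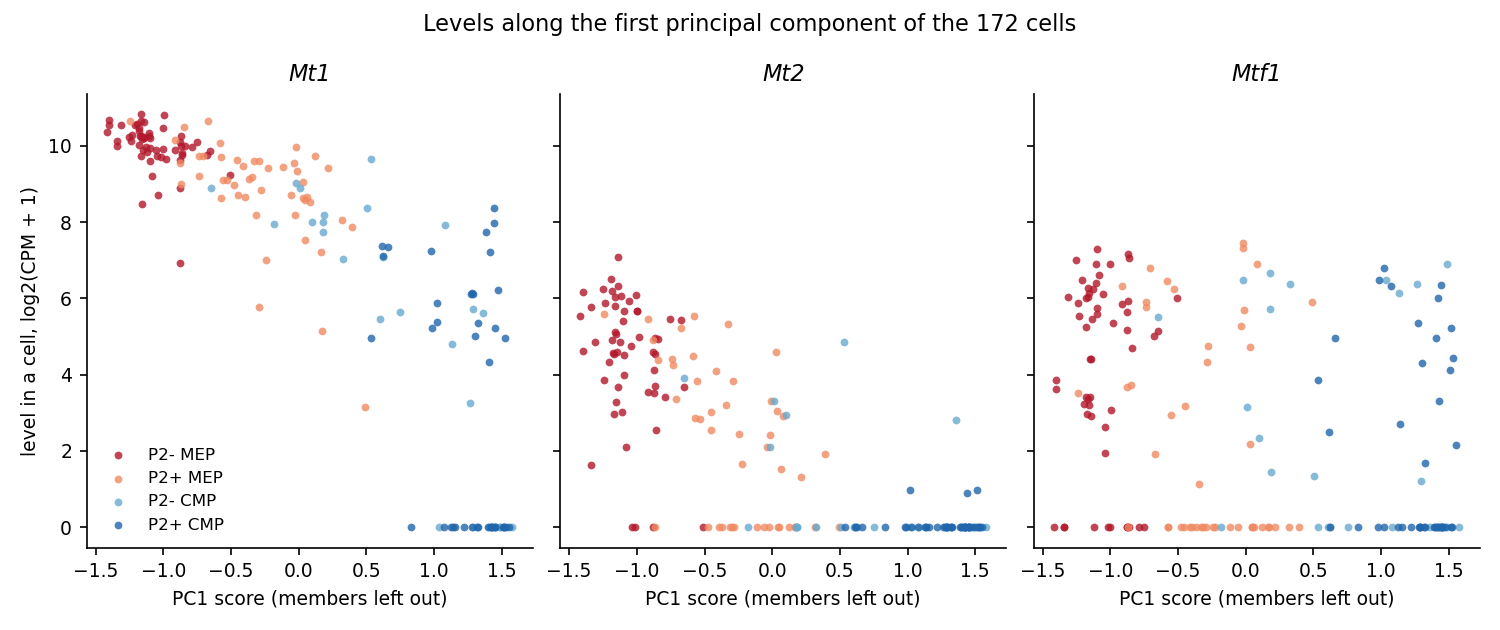
Level in each cell as log2(CPM + 1) against its score on the first principal component, computed without the 3 members, with cells coloured by population. Mt1 falls from about the level of the P2- MEPs at the left to cells at 0 on the right, Mt2 reaches 0 earlier, and Mtf1 is scattered over the whole axis.

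At 100000 reads per cell both Mt1 and Mt2 were present in 46 of 56 P2- and 18 of 47 P2+ MEPs but in 5 of 27 P2- and 0 of 42 P2+ CMPs, and Mt1 without Mt2 in 10, 29, 14 and 21 cells. Mt2 was present without Mt1 in 0 cells, which in the MEPs follows from Mt1 being read in all of them. Without thinning, 1 P2+ CMP had Mt2 without Mt1. Spearman's rho of Mt1 and Mt2 was 0.48 and 0.51 in the P2- and P2+ MEPs, and 0.56 in the P2- CMPs. In P2+ CMPs it could not be computed after thinning and was 0.12 without it. In both MEP populations and the P2- CMPs cells higher in Mt1 thus tended to be higher in Mt2, over cells that share a pool and a range of depths.

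Mtf1 and Mt1 were compared in the same way. Mt1 and Mtf1 were both read in 42 of 56 P2- and 19 of 47 P2+ MEPs and in 10 of 27 P2- and 8 of 42 P2+ CMPs, and Mt1 was read without Mtf1 in 14, 28, 9 and 13 cells. The rho between their levels was 0.087, 0.26, 0.2 and 0.00031. A read of Mtf1 was absent from many cells at this depth, and the part of these cells in the low coefficients was not tested.

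Over all cells, at 100000 reads per cell, the genes most like Mt1 by Spearman's rho among 8027 genes were Blvrb (0.814), Cpox (0.808), Klf1 (0.797), Alad (0.79) and Ermap (0.754). Blvrb encodes a biliverdin reductase abundant in red cells, Cpox and Alad encode enzymes of haem synthesis, KLF1 is an erythroid transcription factor, and ERMAP is an erythroid membrane protein. Mt2 was number 7 in this order (0.735) and Mtf1 number 501 (0.323). For Mt2 the most alike gene was Mt1 (0.735), followed by Ermap (0.721), Klf1 (0.668), Blvrb (0.661) and Cpox (0.652). These coefficients span the differences between the sorted populations as well as those within them. With Pearson's r of log2(CPM + 1) in place of rho, 2 of the 5 genes for Mt1 and 3 of the 5 for Mt2 were again among the first 5.

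Inside the P2- MEPs none of Blvrb, Cpox, Klf1, Alad and Ermap was among the first 5. The genes most like Mt1 there were Ifi30 (0.486), Rhobtb2 (0.479), Mt2 (0.476), Tbccd1 (0.461) and Polr2m (0.44), and those most like Mt2 were Mt1 (0.476), Mpp1 (0.454), Cecr2 (0.452), 9030624J02Rik (0.448) and Ptar1 (0.442). Mt1 and Mt2 were thus number 3 and number 1 in each other's order among 7986 genes, over 56 cells. The coefficients of the other genes are of similar size and no more is read from them.

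In the P2- CMPs Mt1 went with Klf1. All 14 of 27 cells with a Klf1 read had Mt1 reads, 5 had Mt1 alone and 8 had neither, with a rho of 0.79. In P2+ MEPs 39 of 47 cells had both, with a rho of 0.4. The P2- MEPs had both genes in 56 of 56 cells, with a rho of 0.1, and the P2+ CMPs had both in 1 of 42 cells and Mt1 alone in 20. In these P2+ CMPs Klf1 was alone in 1 cell and neither gene was read in 20, so too few cells had Klf1 for its relation to Mt1 to be read.

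**Figure D4:**
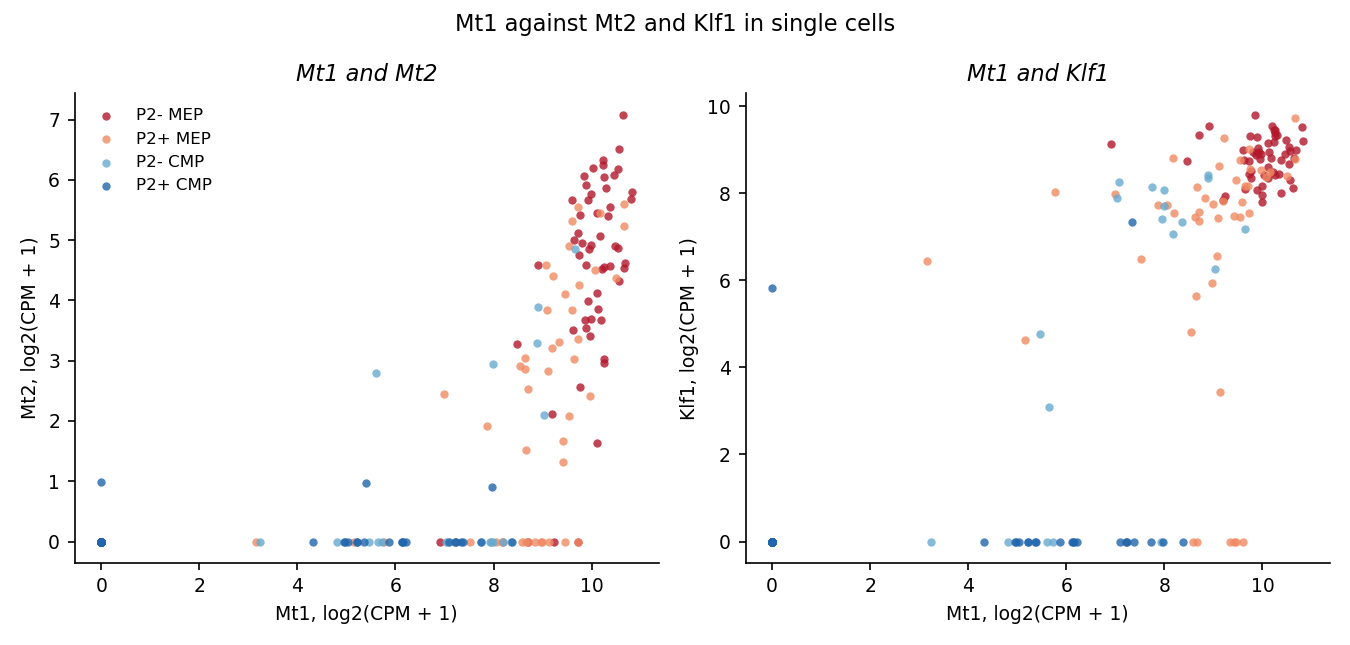
Level of Mt2 (left) and of Klf1 (right) in each cell against that of Mt1, all as log2(CPM + 1), coloured by population. Of the cells with Mt2, 1 P2+ CMP has Mt1 at 0, and in the P2- CMPs every cell with Klf1 also has Mt1, while many P2+ CMPs have Mt1 with Klf1 at 0.

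The targets of MTF1 include genes that it induces and, in Slc39a10, one that it represses. A median over the list therefore has no direction in terms of MTF1. Of 6 listed targets, 2 were higher and 1 lower in P2+ than in P2- MEPs, beside 14.9% and 6.42% of all tested genes, with a list median log2 ratio of 0.38 against 0.05 over all tested genes. Between P2+ and P2- CMPs 0 of 6 were called, beside 9.75% of all tested genes higher and 9.31% lower, with a median of -0.01 against -0.02. In MEPs Slc30a1, which carries zinc out of the cell, had 7.842 CPM in P2- and 2.914 in P2+ cells, a log2 ratio of -1.43 (-1.79 to -1.08). Slc39a10, a zinc importer that MTF1 represses, had 26.76 and 58.15 CPM, a log2 ratio of 1.12 (1 to 1.24), while its median cell was at 6.88 CPM in P2- and 0 in P2+ MEPs and it was read at equal depth in 50% and 42.6% of the cells. The third, the stress-responsive gene Ndrg1, had 0.9148 and 5.543 CPM, a log2 ratio of 2.6 (2.02 to 3.23), and rested on reads in 3 P2- and 4 P2+ MEPs. Without the highest cell of each population it was 3.49. Slc30a1, too, was read in 14 of 56 and 6 of 47 MEPs only.

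In CMPs both Slc30a1 and Ndrg1 rested on single cells. One P2- CMP held 90.1% of the Slc30a1 reads of its population and 1 held 74.8% of the Ndrg1 reads. Leaving out the highest cell of each population turned the log2 ratio of P2+ over P2- CMPs from -0.71 to 1.81 for Slc30a1 and from -0.52 to 1.07 for Ndrg1. Neither ratio is read as a difference.

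Of 7 other factors known to act at metallothionein promoters, 1 was called higher in P2+ MEPs, beside 14.9% of all tested genes, the hypoxia factor Hif1a, at 36.04 and 77.79 CPM in P2- and P2+ MEPs (log2 ratio 1.11, interval 1.01 to 1.21). In CMPs 1 was called higher, beside 9.75%, Usf1, which binds E-box motifs, at 24.93 and 52.65 CPM (log2 ratio 1.08, 0.93 to 1.23). The glucocorticoid receptor gene Nr3c1 was not called between P2+ and P2- cells, with log2 ratios of 0.32 in MEPs and -0.68 in CMPs. It was called lower in P2+ CMPs than in P2+ MEPs, with a log2 ratio of -1.66, as was Nfe2l2, a factor of the oxidative stress response, at -1.03, beside 10.3% of all tested genes called lower there. The list medians of P2+ over P2- were 0.10 in MEPs and -0.68 in CMPs.

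In the MEPs 14.9% of all tested genes were called higher in P2+ cells and 6.42% lower, and in the CMPs 9.75% and 9.31%, and the counts of zinc transporters, of 1 or 2 genes each, stand beside these shares. Of the 10 Slc30 genes, 7 could be compared, and 1 was higher and 1 lower in P2+ MEPs, 0 higher and 1 lower in P2+ CMPs, with median log2 ratios of -0.34 and 0.17. Of the 14 Slc39 genes, 9 could be compared, and 2 were higher and 1 lower in P2+ MEPs, 1 higher and 0 lower in P2+ CMPs, with medians of 0.15 and 0.35. Slc30a4 had 0, 1.109, 12.05 and 3.054 CPM in the 4 populations, from reads in 0, 4, 2 and 6 cells. Slc39a6, an importer, had 4.901 and 14.41 CPM in P2- and P2+ MEPs, and 25.42 and 36.4 in P2- and P2+ CMPs, with a log2 ratio of 1.56 in MEPs and 0.52 in CMPs. Its order over the populations was the opposite of that of Mt1.

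The transporter genes Slc30a10 and Slc39a8 had, like the metallothioneins, their highest level in P2- MEPs. The same held for Slc30a1, Slc30a2, Slc30a6, Slc39a2, Slc39a3, Slc39a4, Slc39a7 and Slc39a9 of the zinc transporter families, while the others that were read were highest in another population. Of these, Slc30a2, Slc39a2, Slc39a4 and Slc39a7 averaged less than 1 read per cell, so their place rests on few reads. For Slc30a1 the log2 ratio of P2- CMPs over P2- MEPs was -0.13 (-0.45 to 0.18), so these were not told apart. Slc30a10, known as an exporter of manganese, had 40.12 CPM in P2- and 24.36 in P2+ MEPs and 0 reads in both CMP populations. Against the MEPs of the same reporter state, and with 3 reads over the population standing for 0, this is a log2 ratio of -7.94 in P2- CMPs and -8.21 in P2+ CMPs, or at most -7.64 and -7.90 with counting error. Its log2 ratio of P2+ over P2- MEPs was -0.72, and -1.04 without the highest cell of each population. Slc39a8, which imports zinc and manganese, had 37.9 and 17.67 CPM in P2- and P2+ MEPs (log2 ratio -1.10, -1.25 to -0.95), 0.05454 in P2- CMPs, from 1 read, and 9.106 in P2+ CMPs, where 6 of 42 cells had reads. Its log2 ratio in CMPs was 7.38 (4.9 to 12.7), and 5.36 without the highest cell of each population, again with 3 reads standing for 0. The rho of Mt1 with Slc30a10 was -0.056 in P2- and 0.34 in P2+ MEPs, and with Slc39a8 0.13 in P2- MEPs, 0.3 in P2+ MEPs and -0.099 in P2+ CMPs.

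Of 11 copper genes, 10 could be compared, with 1 higher and 2 lower in P2+ MEPs and 1 higher and 2 lower in P2+ CMPs, beside the shares of all genes given for the zinc transporters. The median log2 ratios were -0.45 and -0.03. Atp7b, a copper-exporting ATPase, stood apart: it ranged from 0 to 325.4 CPM with a median of 59.2 in P2- MEPs, and a read was present in 44 of 56 of these cells. In P2+ MEPs 3 of 47 cells had a read, and 1 cell had a read in each CMP population. The pooled levels were 80.87, 1.837, 1.309 and 0.4952 CPM, and the log2 ratio of P2+ over P2- MEPs was -5.46 (-5.86 to -5.08), 44-fold lower, and -6.73 without the highest cell of each population. The other gene called lower in P2+ MEPs was Slc31a2, a copper transporter of low affinity (log2 ratio -1.34, from reads in 5 P2- and 2 P2+ MEPs), for which 1 P2+ MEP held 96.2% of the reads and the ratio without the highest cells was -5.17 (-10.5 to -2.59). In CMPs Cox17, a copper chaperone of cytochrome oxidase, was called higher (log2 ratio 1.86, or 1.27 without the highest cells), and Atp7b (-1.40, from 1 cell in each population) and the chaperone Sco1 (-1.07) were called lower. Without the highest cells Atp7b had no ratio in CMPs and was not called, while Sco1 was still called lower (-1.11). The paralog Atp7a had 0.3594 CPM in P2- MEPs, from 1 cell, and 7.316 in P2+ MEPs, with a log2 ratio of 4.35 (3.48 to 5.37). Without the highest cells P2- MEPs had no Atp7a read, and the ratio, with 3 reads standing for 0, was 5.85. Sod1, the copper and zinc superoxide dismutase, had 1232, 874.1, 669.6 and 665.3 CPM in the 4 populations and was read in every cell.

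**Figure D5:**
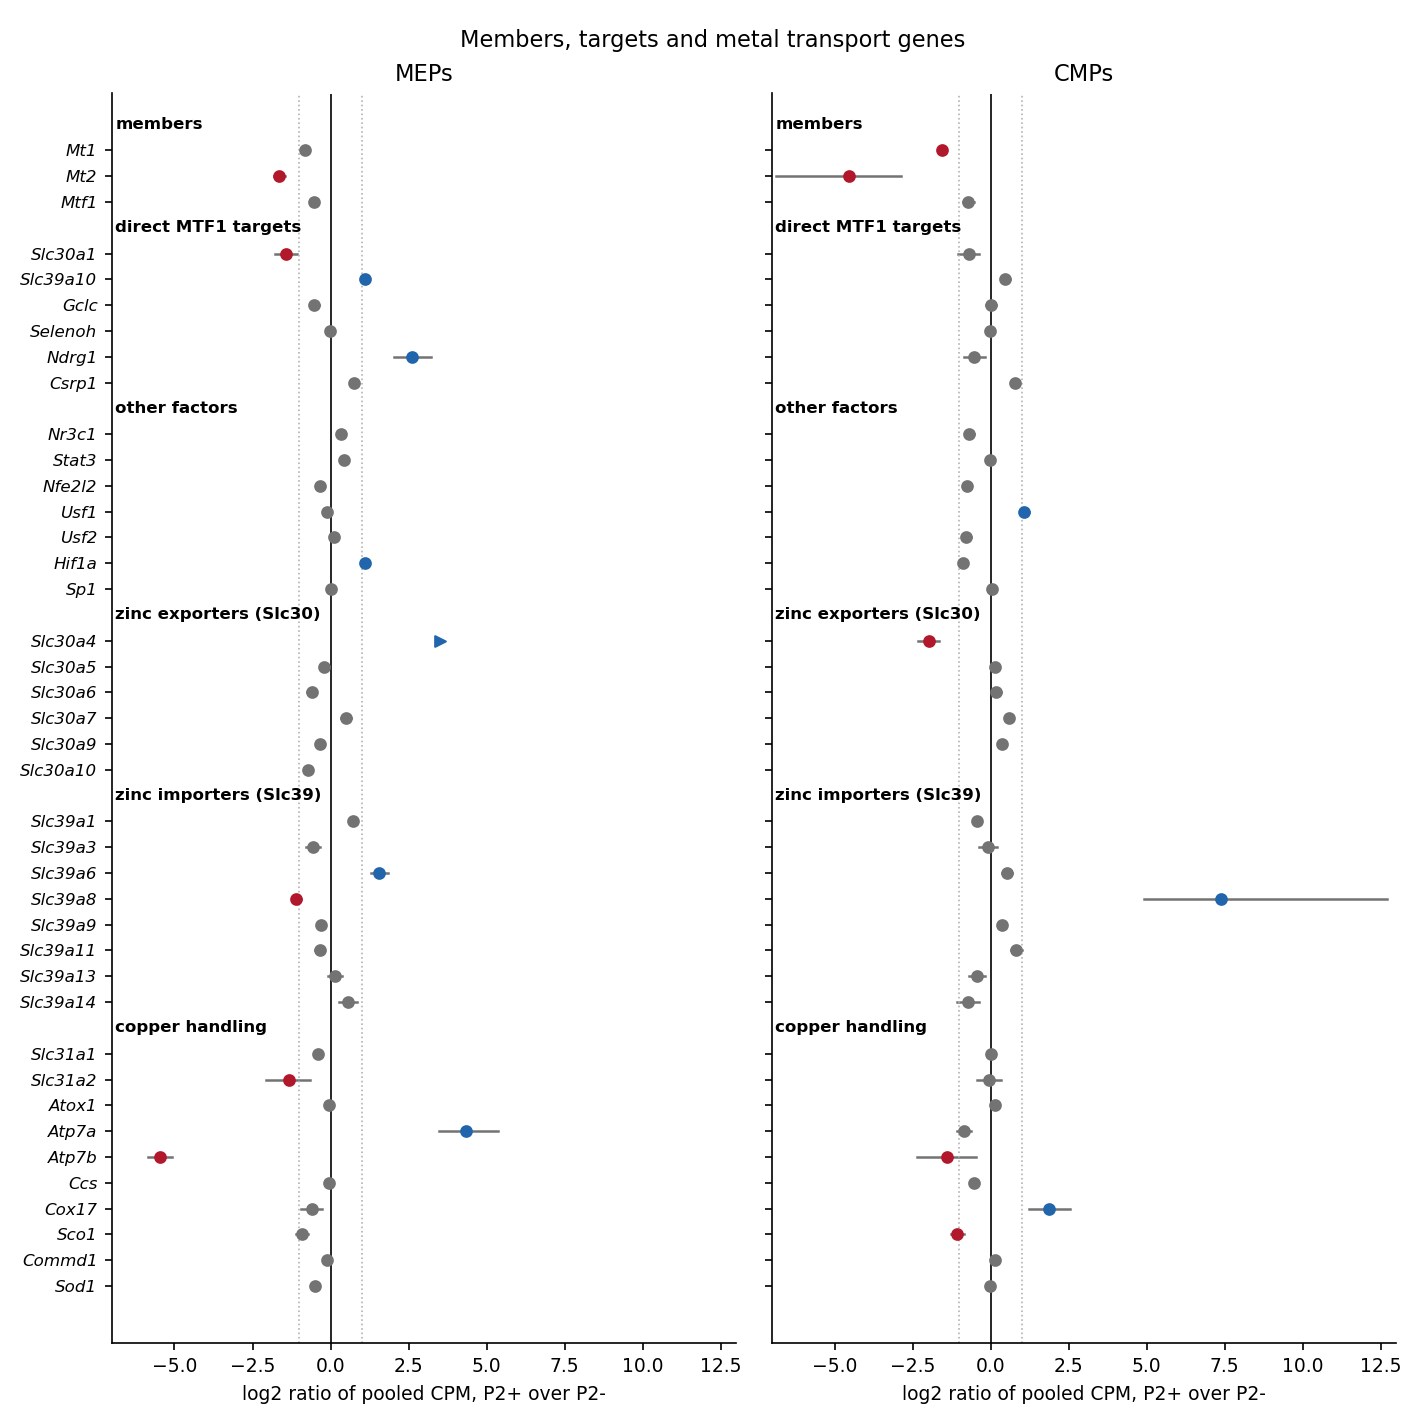
Log2 ratio of the pooled CPM of P2+ over P2- cells in MEPs (left) and CMPs (right) with its exact 95% interval, for the members and for the genes of 5 lists that could be compared. Blue marks genes at least 2-fold higher and red at least 2-fold lower with an interval that excludes 0, a triangle is a ratio with 3 reads standing for 0, dotted lines are at 2-fold, and Slc30a10 has no ratio in CMPs because it had 0 reads in both. Slc30a1 and Slc39a10 are drawn with the targets only.

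Markers of other cells of the fetal liver were measured beside the members, although the Lin- Sca1- cKit+ gate is set to leave such cells out. Hepatocytes, which express much metallothionein, were represented by 9 genes: their summed level was 11.99, 10.74, 24.87 and 13.64 CPM. Serpina1a and Ahsg had 0 reads in all populations, and Alb had 0 in P2+ MEPs and P2+ CMPs and 4.476 and 12.71 CPM in P2- MEPs and P2- CMPs, in the CMPs from 1 cell. Reads aligned to several places were not counted, and Gm20425 overlapped 63.5% of the exon bases of Trf, another of the 9. The levels of these genes can therefore be too low. Of the 9 genes, 3 could be compared. Alb was called lower in P2+ MEPs (log2 ratio -5.56) and in P2+ CMPs (-7.27), with 3 reads standing for 0, and higher in P2- CMPs than in P2- MEPs (1.51), where it was -4.15, or at most -3.83, without the highest cells. Without the highest cells both CMP populations had 0 reads of Alb, and it was not called in P2+ CMPs. Afp was read in all populations, at 4.999, 5.923, 10.74 and 10.34 CPM, and was called higher in P2- CMPs than in P2- MEPs (log2 ratio 1.10, or 0.40 and not called without the highest cells). For P2+ CMPs over P2+ MEPs the log2 ratio of Afp was 0.80 and not called, but 1.59 (1.24 to 1.96) and called higher without the highest cells. Apoa1 was called higher in P2+ than in P2- CMPs (1.21) and than in P2+ MEPs (1.75), but without the highest cell of each population these ratios, again with 3 reads standing for 0, were -2.99 and -1.43, or at most -2.46 and -0.74 with counting error. Summed levels of 6 macrophage genes were 0, 0, 0 and 0.33, and those of 4 endothelial genes 0.098, 1.43, 1.85 and 3.88. Genes of the immediate early and stress response, which can follow handling of cells, summed to 547, 1252, 1142 and 1161. Of the 7 erythroid genes 5 were called lower in P2+ MEPs, where 6.42% of all tested genes were, and 6 in P2+ CMPs, where 9.31% were. Those not called were Klf1 (log2 ratio -0.97) and Gata1 (-0.16) in MEPs and Blvrb (-0.85) in CMPs. The part of erythroid content, of RNA from hepatocytes and of handling in the levels of the metallothioneins was not tested.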

How the data were processed

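Single cells were sequenced by Smart-Seq2 with paired-end reads. The authors trimmed the reads with Trimmomatic (0.36), aligned them with STAR (2.4.2a) to a joined reference of GRCm38 and ERCC, and used HTSeq (0.6.1p1) with its unstranded setting on exons of GENCODE M12. The values deposited by the authors are raw counts. A second deposited table gives the percent of unmapped reads. The 5 tally rows of HTSeq were left out of totals, and 25.6% of uniquely mapped reads were ambiguous and 7.4% lay outside genes. Reads aligned to several places were not counted for any gene, and the share of these from metallothionein genes was not tested.

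Cells with fewer than 250000 reads, over 25% unmapped reads or over 15% ERCC reads were removed (3 cells), following the study, and 0 pairs of cells were identical. Counts were summed per population and divided by the reads on mouse genes. Ratios used no pseudocount, and 3 reads stood in for 0 in a population. Intervals of levels were exact Poisson and those of shares and ratios exact binomial. Ratios were compared among genes averaging 1 or more reads per cell. Shares of cells and Spearman's rho used cells thinned to 100000 reads. The study's DESeq2 test was not run, because cells of 1 pool are not replicates; DESeq2 (1.42.0) gave size factors for an alternative only. The ratios were tested on simulated counts. Python (3.11.15), numpy (2.4.6), scipy (1.17.1), pandas (2.3.3), matplotlib (3.10.9) and R (4.3.3) were used.

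Exons and overlaps were taken from GENCODE M21 on GRCm38, since M12 was not used here. Promoters were RefSeq's. Members and gene lists were chosen with earlier results of these data known. Genes named were the members, genes of the lists at least 2-fold apart, and the 5 genes most like Mt1 and Mt2 by rho, among those read in at least 25% of the cells. Other genes of the lists, Sod1, Nr3c1, Slc30a10 and Klf1 among them, were named after their values were seen. Alternatives covered the weight of cells, the denominator, the depth of thinning, filters and single cells.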

Additional observations from a re-analysis of the deposited data

Results flagged for a closer look

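Among the metal genes, Slc30a4 and Slc39a8 went in opposite directions in the MEPs and CMPs, and the difference between the compartments was not tested, as each population is 1 sample. For Slc30a4, which moves zinc into vesicles, the log2 ratio (P2+ over P2-) was 3.5 in MEPs, where 3 reads stood for the 0 reads of the P2- MEPs, and -1.98 in CMPs. The lower limit in MEPs was 3.12, the value without the highest cell of each population was 2.84 (lower limit 2.41) in MEPs and -1.44 in CMPs, and only 4 P2+ MEPs, 2 P2- CMPs and 6 P2+ CMPs had a read. For Slc39a8 it was -1.1 in MEPs and 7.38 in CMPs, with an interval of 4.9 to 12.7 in the CMPs, since the P2- CMPs held 1 read, and it was 5.36 there without the highest cell of each population. The antisense gene Gm45774 over Mt2 lies outside the comparisons and had 27 reads in all cells, above the 3 reads set as the floor.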

How the results depend on the processing

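All 39 alternatives of the 6 ratios of P2+ over P2- of Mt1, Mt2 and Mtf1 kept the direction, and 24 of them stayed within the counting interval. The 15 others were these. With equal weight for every cell the log2 ratio of Mt1 was -0.851 in MEPs and -1.73 in CMPs, and that of Mtf1 -0.737 in MEPs. With DESeq2 size factors these were -0.788, -1.72 and -0.68. With ERCC reads as the denominator they were -1.43 for Mt1, -2.26 for Mt2 and -1.15 for Mtf1 in MEPs, and -1.22 for Mt1 and -0.382 for Mtf1 in CMPs, so that Mt1 and Mtf1 passed 2-fold in the MEPs. Without mitochondrial genes and genes above 5% of reads Mt1 gave -0.777 in MEPs. Without the cell of highest CPM in each population Mt1 gave -0.865 and Mtf1 -0.791 in MEPs, and Mtf1 -0.926 in CMPs. The causes were not tested. Of 91 alternatives of other values, among them the ratios of the members between compartments, shares of cells and counts of genes, 68 stayed within their limits, 23 did not and 0 turned direction. Of 84 ratios of P2+ over P2- of genes listed as targets, other factors, metal genes or neighbours, 26 left their interval and 8 turned direction without the highest cell of each population, and of these 8 Slc30a1 (1.81), Ndrg1 (1.07) and Bbs2 (1.63) were called higher in P2+ CMPs. The ratios between compartments under the same alternatives, and the lists without the highest cell, were chosen after seeing the data. Without the highest cell the copper genes had 3 lower in P2+ MEPs and 1 lower in P2+ CMPs, the Slc30 genes 2 lower in P2+ MEPs, the Slc39 genes 1 lower in P2+ CMPs, the targets of MTF1 2 higher in P2+ CMPs, and the erythroid genes 6 lower in P2+ MEPs and 5 lower in P2+ CMPs. Filters on low counts moved the number of genes at least 2-fold higher in P2+ MEPs to 3105 with at least 10 summed reads and to 3228 with any read, from 1771, and of those lower to 1857 and 2085, from 762. In CMPs those higher numbered 2634 under both, from 1156, and those lower 2297 and 2581, from 1104. No paired analysis was possible because each cell has a number of its own and each population is 1 sample. Depth limits Mt2 in CMPs, where 35 and 3 reads were counted.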
